A study of Mus musculus with 6 samples.

Results

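Collagen genes were taken as the rows of the deposited count table whose symbol reads Col, a number, the letter a and a number. This rule found 44 of the table's 31276 symbols and used no expression value. It was chosen, however, with earlier results of these data known. Polyadenylated RNA of mouse brain was sequenced in 3 samples labelled PRMT5 olig2cre KO (KO) and in 3 labelled wild-type (WT), all from C57BL/6 mice at age P14. In the KO, Prmt5, which encodes an arginine methyltransferase, is targeted with Cre recombinase expressed from Olig2, which encodes a transcription factor of oligodendrocyte development. Cre is therefore active in that lineage and in other descendants of Olig2-expressing progenitors, and the remaining cells of the brain are not targeted. The labels do not say whether WT mice carried the Cre or a floxed allele, nor whether samples that share a label are different animals, so each p-value measures only the spread between these samples. The comparison asks which collagen transcripts differ in brain when Prmt5 is targeted in Olig2-expressing cells.

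Collagens are proteins of 3 chains wound into a triple helix. Fibrillar collagens are cleaved outside the cell and pack into fibrils, network collagens form sheets and filaments such as the type IV sheet of every basement membrane, and FACIT collagens decorate the surface of fibrils. Multiplexins are basement membrane collagens with interrupted helices that carry sugar chains, and transmembrane collagens are held in the plasma membrane. In brain, collagen protein is largely confined to the meninges, the vessel walls, the choroid plexus stroma and the basement membrane under the pial surface, and is made mainly by fibroblasts, endothelial cells and mural cells. Of the 44 genes, 11 were grouped as fibrillar, 17 as network (types IV, VI, VII, VIII, X and XXVIII), 9 as FACIT, 2 as multiplexin and 4 as transmembrane, and Col26a1 was left unclassed.

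The KO libraries held 16365802, 16108457 and 15089140 counts and the WT libraries 15919292, 15219817 and 16872925, for replicates 1 to 3. The neuronal transcript Snap25 stood at 1379 to 1710 CPM (counts as a fixed proportion of the TMM-scaled library total, from the edgeR cpm function) in all 6 libraries. The targeted gene, Prmt5, had 68.2, 68.4 and 81.6 CPM in KO replicates 1 to 3 and 90.8, 90.4 and 91.8 CPM in WT replicates 1 to 3 (log2 fold change -0.32, SE 0.095, adjusted p = 0.232 in edgeR, and 0.0379 with a block for the replicate number). No label says what the replicate numbers mark. The block was adopted because same-numbered libraries varied together in these same data, which limits every p-value given with it. The 7 myelin markers summed to 889.6 to 1909.8 CPM in KO, against 7447 to 10182 CPM in WT, and all 7 fell. Gabra6, a transcript of cerebellar granule cells, had 80.03 and 22.1 CPM in KO replicates 1 and 3 and 63.8 CPM in WT replicate 1, and was at 0 in KO replicate 2 and in WT replicates 2 and 3. Xist, which marks female samples, was high in KO replicates 1 and 2 and in WT replicate 2, so that the sexes were unequally divided between the groups.

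Collagen transcripts were more abundant in KO brain, and the increase lay in particular members of the fibrillar, network, multiplexin and transmembrane classes. All 44 genes together summed to 1226, 1253 and 968 CPM in KO replicates 1 to 3 and to 806, 779.6 and 779 CPM in WT replicates 1 to 3. Every KO library was above every WT library, and the ratio of means was 1.46. Of the 43 genes that passed the filter on low counts, 10 rose and 0 fell at a Benjamini-Hochberg adjusted p under 0.05 in edgeR's quasi-likelihood test, adjusted over all 16592 genes tested. Of all genes tested, 0.241% rose and 0.958% fell, so that 10 of the 40 genes that rose were collagens. At an unadjusted p under 0.05 there were 18 of the 43 (9.67% of all genes), and DESeq2 called 13 higher and 0 lower (0.446% and 1.44% of all genes). The median log2 fold change (KO over WT) was 0.31 over the 43 genes and 0.01 over all genes, with 31 positive and 12 negative values. For 16 genes every KO library lay above every WT library (8.02% of all genes), and for 3, Col20a1, Col9a3 and Col6a4, every KO library lay below (7.99% of all genes). In bulk tissue, more cells of a type and more RNA per cell cannot be told apart.

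**Figure D1:**
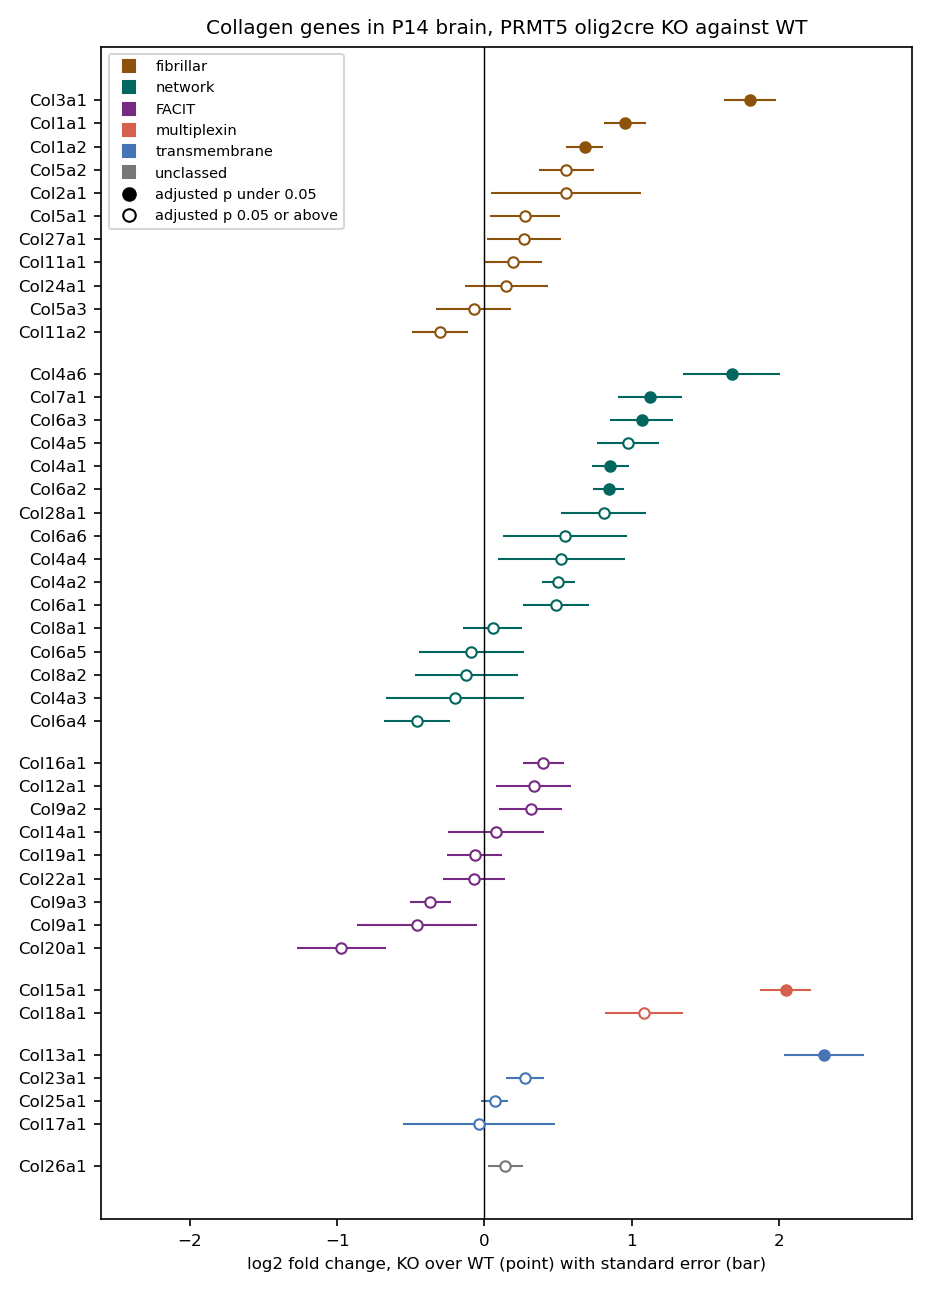
Log2 fold change (KO over WT, horizontal axis) of the 43 tested collagen genes by class, with points for the estimate, bars for the standard error and filled points for an adjusted p under 0.05. The 10 filled points all lie right of 0 and fall in the fibrillar, network, multiplexin and transmembrane classes, and the 9 FACIT genes lie on both sides of 0.

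Several of these calls depended on a library. Without WT replicate 2, 5 collagen genes rose (0.0652% of all genes in that fit), without WT replicate 3, 6 rose (0.0533% of all genes), and a term for sex left 6 (0.0904% of all genes), Col13a1, Col15a1, Col3a1, Col1a1, Col4a1 and Col6a2. Col13a1, Col15a1 and Col3a1 stayed called in every alternative fit. With a block for the replicate number, 15 collagen genes rose and 1 fell, where 1.03% of all genes rose and 2.38% fell.

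Markers of cells that make collagen were examined beside these values. Markers of meningeal fibroblasts, 13 genes with Lum and Dcn first, summed to 405, 340.5 and 252 CPM in KO replicates 1 to 3 and to 211, 189.98 and 226 CPM in WT replicates 1 to 3, without overlap. Most of the sum was Igf2, a growth factor gene, and without it the markers summed to 128, 106 and 104 CPM in KO and to 70.1, 71.3 and 74.97 CPM in WT, again without overlap. Of the 13, 2 rose, beside 0.241% of all genes. One was Lum, a proteoglycan of collagen fibrils (12.2, 9.7 and 7.62 CPM in KO and 2.87, 3.45 and 2.41 CPM in WT). The other was Slc6a13, a transporter (15.7, 12.2 and 15.9 CPM in KO and 7.68, 6.62 and 8.9 CPM in WT). Log2 fold changes were positive for 12, with a median of 0.68. Every KO library lay above every WT library for 5 of the 13, beside 8.02% of all genes. The groups overlapped for the others, from Ogn (log2 fold change -0.09) to Slc47a1 (0.82), with Foxc1 at 0.18. Dcn had 45.5, 32.5 and 30.6 CPM in KO and 20.1, 22.2 and 27.1 CPM in WT (adjusted p = 0.158 in edgeR, and 0.0156 with the replicate block). With the block 6 of the 13 rose, beside 1.03% of all genes. Markers of endothelial cells summed to 159 to 185 CPM in KO, against 173 to 177 CPM in WT. Of these 10, 0 were called and 0 had an unadjusted p under 0.05. Those of pericytes and smooth muscle summed to 151 to 166 CPM in KO, against 126 to 154 CPM in WT, with 0 of 9 tested called. At an unadjusted p under 0.05 there were 3 (9.67% of all genes), in both directions. Every KO library was above every WT library for Pdgfrb and Vtn (log2 fold change 0.31 for each), and below for Rgs5 (-0.39). Markers of cerebellar granule cells summed to 134 to 734 CPM in KO, against 95.2 to 638 CPM in WT, following Gabra6, with 0 of 6 called and 0 at an unadjusted p under 0.05. With the replicate block, Zic1 (adjusted p = 0.000724) and Zic2 (adjusted p = 0.0149) of that list were called higher in KO. Among libraries with Gabra6 at 0, KO replicate 2 had 59.0 CPM of Zic1 and 26.3 CPM of Zic2. There WT replicates 2 and 3 had 34.3 and 30.8 CPM of Zic1 and 18.1 and 15.9 CPM of Zic2. The reason for this difference was not tested. DESeq2 called 0 in the endothelial, pericyte and granule cell lists. It called 5 of the 13 meningeal fibroblast markers, all higher in KO, beside 0.446% of all genes. Markers of cartilage and bone, of Schwann cells and of skeletal muscle summed to at most 14.6 CPM in any library, with overlapping groups, 0 of 9 tested members called by edgeR or DESeq2 and 0 at an unadjusted p under 0.05, and the cartilage marker Matn1 was at or below 0.625 CPM. The part of meningeal fibroblasts in the higher fibrillar and network collagens was not tested.

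**Figure D2:**
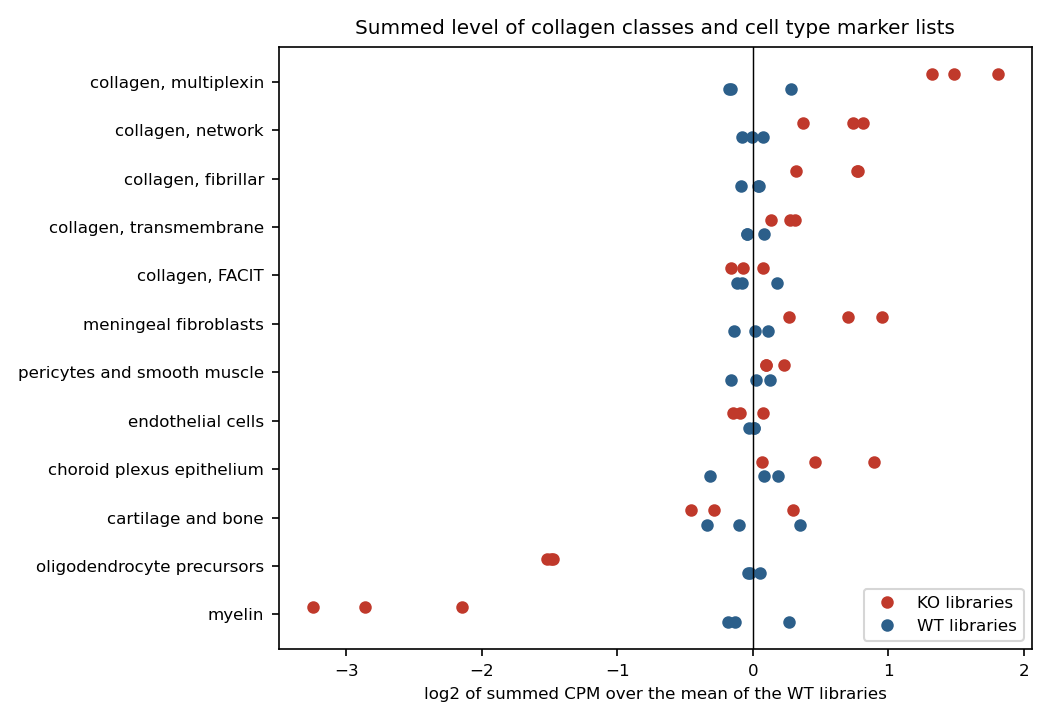
Summed CPM of collagen classes and cell type marker lists in each library, as log2 of its ratio to the mean of the 3 WT libraries (horizontal axis), with KO libraries as red points above WT libraries as blue points. The multiplexin, network, fibrillar and transmembrane sums and the meningeal fibroblast sum are higher in all 3 KO libraries, the endothelial sums overlap, and the oligodendrocyte precursor and myelin sums are lower in all 3 KO libraries.

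The largest relative increases were in a transmembrane, a multiplexin and a fibrillar collagen gene, and the windows around their start sites are shown because these 3 genes carry the largest changes. Each is the RefSeq promoter window of GRCm38.p6, from 250 bases before to 50 bases after the annotated start, 5′ to 3′ on the gene's strand, at chr10:61979059-61979358 on the minus strand, chr4:47207762-47208061 on the plus strand and chr1:45311288-45311587 on the plus strand. Capitals mark matches on either strand to TATAAA (the TATA box core), CCAAT (the CCAAT box core) or GGGCGG (the GC box core).
Col13a1: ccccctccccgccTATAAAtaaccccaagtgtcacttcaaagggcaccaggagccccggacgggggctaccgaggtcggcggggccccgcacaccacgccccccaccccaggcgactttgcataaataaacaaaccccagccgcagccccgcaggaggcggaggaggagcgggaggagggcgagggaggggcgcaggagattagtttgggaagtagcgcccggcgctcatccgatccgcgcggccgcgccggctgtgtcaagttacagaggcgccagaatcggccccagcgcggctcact
Col15a1: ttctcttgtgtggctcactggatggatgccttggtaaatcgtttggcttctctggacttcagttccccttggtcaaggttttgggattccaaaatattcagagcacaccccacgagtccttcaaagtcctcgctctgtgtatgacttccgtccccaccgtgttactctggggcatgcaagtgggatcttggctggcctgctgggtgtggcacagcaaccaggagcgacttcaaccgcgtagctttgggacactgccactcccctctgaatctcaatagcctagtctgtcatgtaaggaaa
Col3a1: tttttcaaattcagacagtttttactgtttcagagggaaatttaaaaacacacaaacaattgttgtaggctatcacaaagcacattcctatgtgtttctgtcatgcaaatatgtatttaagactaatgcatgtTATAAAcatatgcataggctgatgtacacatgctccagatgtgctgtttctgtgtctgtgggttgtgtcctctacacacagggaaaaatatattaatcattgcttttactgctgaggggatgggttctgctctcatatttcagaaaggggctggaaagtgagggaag
The windows of Col13a1 and Col3a1 each held 1 match to TATAAA and none to the other motifs, and the window of Col15a1 held none of the 3. Their GC content was 68.0%, 52.3% and 37.7%, beside a median of 52.7% over all 32851 windows in the RefSeq table. Of the 44 genes, 35 had a window, in 38 windows altogether. TATAAA occurred in 5 of these 38 windows (13.2%) and in 13.6% of all windows, CCAAT in 13 (34.2%) and in 37.4% of all windows, and GGGCGG in 23 (60.5%) and in 35.7% of all windows. Among the 10 windows of genes that rose, 2, 3 and 6 held these motifs in that order. Col1a1, which also rose, had no window, and another of these genes had more than 1. The RefSeq start of Col15a1 lies upstream of the start in the gene model used for its coordinates. A match is a string of letters and not a shown binding site.

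Fibrillar collagens rose in 3 of 11 members, beside 0.241% of all genes. The class summed to 361, 363 and 265 CPM in KO replicates 1 to 3 and to 219, 217 and 199 CPM in WT replicates 1 to 3, with no overlap and a ratio of means of 1.56. Its median log2 fold change was 0.27, with 9 positive and 2 negative values. Type I collagen, built from the chains of Col1a1 and Col1a2, is the main fibril protein of connective tissue, and type III, built from Col3a1 alone, shares its fibrils in vessel walls and soft tissue. All 3 genes rose, and Col3a1 rose most.

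Coordinates of genes are from GENCODE M21 on mm10. Col3a1 (ENSMUSG00000026043.18, chr1:45311538-45349706, plus strand) stood at 102, 77.2 and 66.9 CPM in KO replicates 1 to 3 and at 26.4, 18.4 and 25.8 CPM in WT replicates 1 to 3. The lowest KO library was thus more than 40 CPM above the highest WT library, while KO replicate 1 was well above the other KO libraries. It rose 3.48-fold (log2 fold change 1.8, SE 0.175, adjusted p = 0.000368 in edgeR). The annotation places a predicted gene on the same strand over exons of Col3a1, and reads of the pair may be shared.

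Col1a1 (ENSMUSG00000001506.10, chr11:94936224-94953042, plus strand) had 50.8, 42.2 and 35.96 CPM in KO and 20.4, 24.6 and 21.7 CPM in WT libraries. All KO libraries were higher, and the WT libraries lay closer together than the KO libraries. The rise was 1.93-fold (log2 fold change 0.95, SE 0.143, adjusted p = 0.00739 in edgeR), and without WT replicate 3 the adjusted p was 0.0529. Col1a2 (ENSMUSG00000029661.16, chr6:4504814-4541544, plus strand) had 12.3 ± 2.31 RPKM (CPM per kilobase of the transcript with the longest coding sequence) in KO and 7.71 ± 0.128 RPKM in WT (SD, n = 3 each). That was the highest level per length of the fibrillar genes in WT, while in KO Col3a1 stood higher, at 14.7 ± 3.23 RPKM, against 4.23 ± 0.802 RPKM in WT. Per kilobase of all annotated exons, the mean over all 6 libraries was higher for Col3a1 (5.38 RPKM) and Col1a1 (4.97 RPKM) than for Col1a2 (4.32 RPKM). It had 79.8, 62.1 and 56.2 CPM in KO libraries and 40.5, 41.9 and 41.3 CPM in WT libraries. The WT values were within 1.4 CPM of each other and the KO values were spread more widely, all above them. Its rise was 1.6-fold (log2 fold change 0.68, SE 0.126, adjusted p = 0.0275 in edgeR), and the adjusted p was 0.0669 to 0.1502 without KO replicate 2 or without any 1 of the WT replicates.

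The other fibrillar genes did not pass the test. Col5a2, a chain of type V collagen, which nucleates type I fibrils, lies tail to tail with Col3a1 on chromosome 1, 24614 bases from it. Col5a2 had 23.7, 23.4 and 14.4 CPM in KO replicates 1 to 3 and 13.9, 15.1 and 12.8 CPM in WT replicates 1 to 3. KO replicates 1 and 2 were above all WT libraries and KO replicate 3 lay among them (log2 fold change 0.56, SE 0.189, adjusted p = 0.326 in edgeR, and 0.0466 with the replicate block). Col5a1, the partner chain of Col5a2, had 29.1, 53.1 and 25.6 CPM in KO and 26.4, 34.2 and 28.5 CPM in WT, and KO replicate 2 alone stood above the WT range. Col11a2, a chain of the cartilage fibril collagen XI, had the lowest log2 fold change of the class, -0.3 (SE 0.188), with 19.3, 34.5 and 24.2 CPM in KO and 35.2, 32.5 and 28.6 CPM in WT. The remaining 5 genes, Col2a1, Col5a3, Col11a1, Col24a1 and Col27a1, had log2 fold changes of -0.07 to 0.55 and groups that overlapped.

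**Figure D3:**
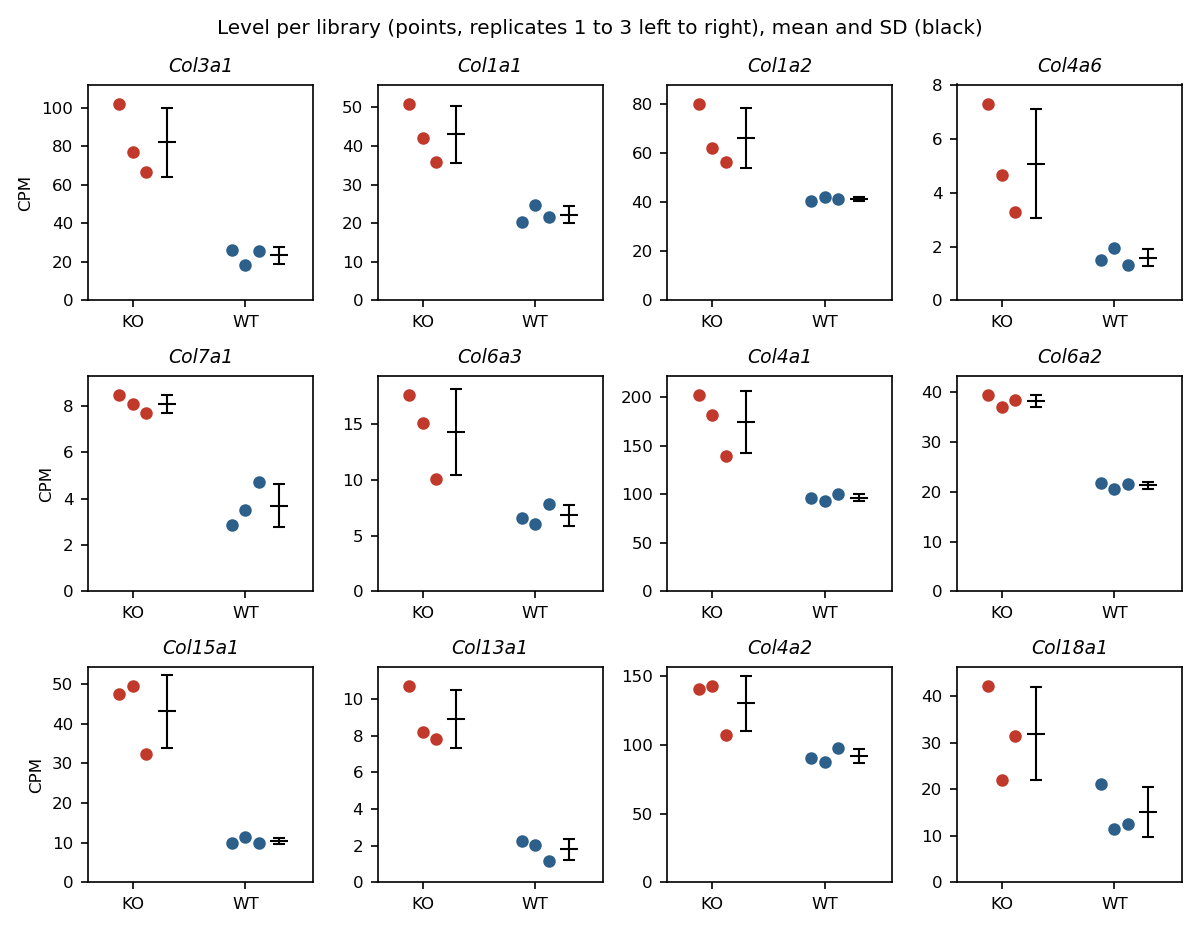
Level in CPM (vertical axes, each from 0) of the 10 collagen genes that rose and of Col4a2 and Col18a1, in KO and WT libraries, with points for single libraries and black marks for the mean and SD (n = 3). In all 12 panels the 3 KO points lie above the 3 WT points, by the widest relative margin for Col15a1 and Col13a1, and by the narrowest for Col18a1.

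Network collagens rose in 5 of 16 tested members, which belonged to types IV, VI and VII, beside 0.241% of all genes. The class summed to 532, 559.7 and 411 CPM in KO replicates 1 to 3 and to 302, 317 and 335 CPM in WT replicates 1 to 3, with a ratio of means of 1.57. The KO and WT sums did not overlap. The median log2 fold change was 0.53, with 12 positive and 4 negative values. In 8 members every KO library lay above every WT library, as in 8.02% of all genes.

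Type IV collagen has 6 chains encoded in 3 head-to-head gene pairs. The chains of Col4a1 and Col4a2 form the common basement membrane network of vessels and pia, those of Col4a3, Col4a4 and Col4a5 the network of the kidney filter, and those of Col4a5 and Col4a6 a network of smooth muscle and epithelial basement membranes. Col4a1 and Col4a2 start 21 bases apart on opposite strands of chromosome 8, and their annotated ends overlap by 22 bases. Their RefSeq windows share 78 bases and are shown because the pair starts from the same stretch of DNA and their levels are set against each other here. The window of Col4a1 is chr8:11312777-11313076 on the minus strand and that of Col4a2 is chr8:11312555-11312854 on the plus strand, with capitals for the same motifs as above.
Col4a1: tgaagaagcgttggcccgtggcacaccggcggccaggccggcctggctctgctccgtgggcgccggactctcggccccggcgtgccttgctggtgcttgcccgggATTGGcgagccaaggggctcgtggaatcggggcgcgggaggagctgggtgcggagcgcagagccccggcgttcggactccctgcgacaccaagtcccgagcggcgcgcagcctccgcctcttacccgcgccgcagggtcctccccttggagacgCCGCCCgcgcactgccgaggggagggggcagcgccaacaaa
Col4a2: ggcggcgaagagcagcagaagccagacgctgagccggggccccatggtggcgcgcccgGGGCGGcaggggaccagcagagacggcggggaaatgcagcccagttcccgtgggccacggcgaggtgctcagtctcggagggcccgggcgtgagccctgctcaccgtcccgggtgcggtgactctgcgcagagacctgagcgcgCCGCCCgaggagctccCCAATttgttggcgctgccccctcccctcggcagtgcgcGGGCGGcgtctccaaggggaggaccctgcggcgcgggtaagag
The window of Col4a1 held 1 match to CCAAT and 1 to GGGCGG, and that of Col4a2 held 1 to CCAAT and 3 to GGGCGG, with none to TATAAA in either. Their GC content was 74.0% and 73.7%.

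Col4a1 (ENSMUSG00000031502.11, chr8:11198423-11312826, minus strand) had 26.3 ± 4.85 RPKM in KO and 14.6 ± 0.521 RPKM in WT (SD, n = 3 each), the highest mean level per length of all collagen genes in KO and below Col25a1, Col6a1 and Col9a3 in WT. It stood at 202, 181 and 139 CPM in KO replicates 1 to 3 and at 96.01, 93.1 and 99.997 CPM in WT replicates 1 to 3. The WT libraries were nearly equal and the KO libraries were all higher, with KO replicate 3 the closest to WT. The rise was 1.81-fold (log2 fold change 0.85, SE 0.127, adjusted p = 0.00675 in edgeR), and without WT replicate 2 the adjusted p was 0.0553. Col4a2 (ENSMUSG00000031503.13, chr8:11312805-11449287, plus strand) had 141, 143 and 107 CPM in KO and 90.8, 87.9 and 97.7 CPM in WT libraries. All KO libraries were again higher, but KO replicate 3 was only about 10 CPM above WT replicate 3, and the gene did not pass the test (log2 fold change 0.5, SE 0.115, adjusted p = 0.0834 in edgeR, and 0.00487 with the replicate block). The ratio of Col4a1 to Col4a2, each per kilobase, was 1.39, 1.24 and 1.26 in KO replicates 1 to 3 and 1.03, 1.03 and 0.998 in WT replicates 1 to 3. The pair was thus close to equal in WT, and Col4a1 exceeded Col4a2 in every KO library.

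The X-linked pair was also higher in every KO library, at lower levels. Col4a6 (ENSMUSG00000031273.16, chrX:141165403-141474076, minus strand) had 7.3, 4.66 and 3.3 CPM in KO libraries and 1.5, 1.96 and 1.32 CPM in WT libraries. The KO values were all above the WT values and were themselves spread over a more than 2-fold range. Col4a6 rose 3.19-fold (log2 fold change 1.68, SE 0.331, adjusted p = 0.0378 in edgeR), a call that was lost when any library other than KO replicate 3 was left out (adjusted p up to 0.207) and with a term for sex (adjusted p = 0.0908). Col4a5, which starts 1309 bases from Col4a6 on the other strand, had 20.9, 14.7 and 11.9 CPM in KO and 9.18, 6.96 and 8.06 CPM in WT. Every KO library was higher, and the gene missed the threshold (log2 fold change 0.97, SE 0.213, adjusted p = 0.0644 in edgeR, and 0.00114 with the replicate block). Col4a3 and Col4a4, which start 72 bases apart on chromosome 1, were near the limit of detection. Col4a3 had 1.22, 2.27 and 0.699 CPM in KO and 2.37, 1.22 and 1.2 CPM in WT, and Col4a4 had 1.34, 0.819 and 1.14 CPM in KO and 0.625, 1.08 and 0.602 CPM in WT. The groups overlapped for both genes, with log2 fold changes of -0.2 (SE 0.468) for Col4a3 and 0.52 (SE 0.428) for Col4a4.

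Type VI collagen forms beaded filaments beside basement membranes from chains of Col6a1, Col6a2 and a further chain such as that of Col6a3. Col6a2 (ENSMUSG00000020241.13, chr10:76595762-76623630, minus strand) had the smallest p of the network class, with 39.5, 36.98 and 38.4 CPM in KO replicates 1 to 3 and 21.9, 20.6 and 21.5 CPM in WT replicates 1 to 3. Libraries within a group differed by less than 3 CPM and the groups were far apart. Col6a2 rose 1.79-fold (log2 fold change 0.84, SE 0.106, adjusted p = 0.00223 in edgeR) and stayed called when any 1 of the 6 libraries was left out. Col6a3 (ENSMUSG00000048126.16, chr1:90765923-90843971, minus strand) had 17.6, 15.1 and 10.04 CPM in KO and 6.56, 6.01 and 7.82 CPM in WT libraries. KO replicate 3 was the lowest KO library and still above the WT range. The rise was 2.09-fold (log2 fold change 1.07, SE 0.215, adjusted p = 0.0422 in edgeR), a call also lost when any library other than KO replicate 3 was left out (adjusted p up to 0.226). Col6a1, the neighbour of Col6a2 on chromosome 10, had 71.6, 132 and 71.9 CPM in KO and 51.8, 75.6 and 69.3 CPM in WT. KO replicate 2 stood far above the rest and the other KO libraries lay within the WT range (log2 fold change 0.49, SE 0.224, adjusted p = 0.522 in edgeR, and 0.0251 with the replicate block). Col6a1 also differed with cerebellar transcripts, with a log2 difference of -0.69 (SE 0.109, adjusted p = 0.0135 in edgeR) for libraries with Gabra6 against those without. With that term in the fit, Col6a1 was called between KO and WT (log2 fold change 0.67, adjusted p = 0.00748).

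Col7a1 (ENSMUSG00000025650.13, chr9:108953586-108984875, plus strand), whose protein forms the anchoring fibrils of epithelial basement membranes, had 8.45, 8.06 and 7.69 CPM in KO and 2.87, 3.51 and 4.69 CPM in WT libraries. The KO libraries were nearly equal and all above WT. Col7a1 rose 2.18-fold (log2 fold change 1.12, SE 0.216, adjusted p = 0.0321 in edgeR), a call lost when any library other than WT replicate 3 was left out (adjusted p up to 0.16). Among the other network genes, Col28a1 had every KO library above WT without passing the test (log2 fold change 0.81, SE 0.288), and Col6a4 had every KO library below WT (4.38, 4.6 and 4.32 CPM in KO and 4.75, 5.81 and 7.7 CPM in WT, log2 fold change -0.46, SE 0.221). Col6a5, Col6a6, Col8a1 and Col8a2 had log2 fold changes of -0.12 to 0.55 and overlapping groups. Col10a1, a collagen of growth plate cartilage, failed the filter with 10, 7 and 5 counts in KO replicates 1 to 3 and 4, 6 and 4 counts in WT replicates 1 to 3.

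No FACIT collagen was called over all libraries in edgeR without a block or further term, with 0 of 9 past the threshold. Their median log2 fold change was -0.07, from 4 positive and 5 negative values. At an unadjusted p under 0.05 there were 3 of them, beside 9.67% of all genes, and DESeq2 called 0. The class summed to 132, 146 and 124 CPM in KO replicates 1 to 3 and to 157, 131 and 128 CPM in WT replicates 1 to 3, so that the groups overlapped. Col9a3, a chain of type IX collagen, which coats cartilage fibrils, had the highest level per length of the class, at 12.2 ± 0.804 RPKM in KO and 15.8 ± 3.23 RPKM in WT (SD, n = 3 each). It had 34.5, 39.2 and 37.99 CPM in KO and 58.8, 39.5 and 45.7 CPM in WT. The groups were separated by less than 1 CPM, between KO and WT replicate 2, and the difference did not pass the test (log2 fold change -0.37, SE 0.141, adjusted p = 0.417 in edgeR). Col9a3 also shares exon sequence with Tcfl5 on the other strand.

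Col20a1, a FACIT collagen, had the smallest p of its class, with 3.16, 6.55 and 2.73 CPM in KO replicates 1 to 3 and 9.18, 8.25 and 6.98 CPM in WT replicates 1 to 3. KO replicate 2 came within 1 CPM of the lowest WT library and the other KO libraries were lower. The log2 fold change was -0.97 (SE 0.302, adjusted p = 0.269 in edgeR). With the replicate block Col20a1 was the single collagen gene that fell (adjusted p = 0.0125). Without KO replicate 2 it was also called lower (adjusted p = 0.0216 in edgeR). Markers of oligodendrocyte precursors summed to 203 to 209.6 CPM in KO, against 568 to 603 CPM in WT. Of these 6, 4 were called lower, beside 0.958% of all genes. The largest part of the difference was Gpr17, with 51.9, 65.8 and 63.3 CPM in KO and 298, 271 and 285 CPM in WT. Log2 fold changes were -2.24 for Gpr17, -1.85 for Sox10, -0.903 for Olig2 and -0.802 for Pdgfra. Cspg4 (-0.51, adjusted p = 0.227 in edgeR) and C1ql1 (-0.256, adjusted p = 0.629, with overlapping groups) were not called. The part of these markers in the values of Col20a1 and Col9a3 was not tested. Col16a1 had 20.7, 25.01 and 27.2 CPM in KO and 18.5, 17.2 and 19.6 CPM in WT, the only FACIT gene with every KO library above WT (log2 fold change 0.4, SE 0.137, adjusted p = 0.328 in edgeR). The remaining 6 genes, Col9a1, Col9a2, Col12a1, Col14a1, Col19a1 and Col22a1, had log2 fold changes of -0.46 to 0.33 and overlapping groups.

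The multiplexins, Col15a1 and Col18a1, had the highest class median, 1.56, and summed to 89.6, 71.6 and 64.04 CPM in KO replicates 1 to 3 and to 31.2, 22.9 and 22.6 CPM in WT replicates 1 to 3 (ratio of means 2.94). Their proteins sit in vascular and epithelial basement membranes, and the tail of the Col18a1 product can be released as endostatin. Col15a1 (ENSMUSG00000028339.17, chr4:47208161-47313167, plus strand) had 47.4, 49.5 and 32.5 CPM in KO and 9.93, 11.4 and 10.05 CPM in WT libraries. The WT libraries were nearly equal, and the lowest KO library, replicate 3, was more than 20 CPM above them. Col15a1 rose 4.12-fold (log2 fold change 2.04, SE 0.17, adjusted p = 0.000156 in edgeR), with an adjusted p of at most 0.00173 when any 1 of the 6 libraries was left out. Col18a1 had 42.2, 22.1 and 31.6 CPM in KO and 21.2, 11.5 and 12.6 CPM in WT. Every KO library was above every WT library, but KO replicate 2 was less than 1 CPM above WT replicate 1, and the gene was not called (log2 fold change 1.08, SE 0.262, adjusted p = 0.111 in edgeR). With the replicate block its adjusted p was 1.18e-05. Col18a1 was higher in the libraries with Gabra6 than in those without, by 0.78 on the log2 scale (SE 0.148, adjusted p = 0.0347 in edgeR). Choroid plexus markers, whose tissue also expresses Col18a1, summed to 539 to 955 CPM in KO, against 412 to 585 CPM in WT, with Ttr and Folr1 detected in all libraries. Of the 8 markers, 0 were called by edgeR or DESeq2, and 2 had an unadjusted p under 0.05 (9.67% of all genes). Most of that sum was Ttr, with 675, 923 and 511 CPM in KO and 391.8, 565 and 514 CPM in WT, which was called higher with the replicate block (adjusted p = 0.0144). Their part in the result was not tested.

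Transmembrane collagens rose in 1 of 4 members, beside 0.241% of all genes. Col13a1 (ENSMUSG00000058806.14, chr10:61838236-61979108, minus strand), whose protein is a cell adhesion collagen also known from the neuromuscular junction, had the largest fold change of all collagen genes at a low level. It stood at 10.7, 8.19 and 7.81 CPM in KO replicates 1 to 3 and at 2.25, 2.03 and 1.14 CPM in WT replicates 1 to 3. All KO libraries were more than 5 CPM above all WT libraries, which were close to the bottom of the range. Col13a1 rose 4.93-fold (log2 fold change 2.3, SE 0.27, adjusted p = 0.00135 in edgeR), with an adjusted p of at most 0.0093 when any 1 library was left out. Col25a1, a membrane collagen of neurons found in amyloid plaques, had the highest level per length of the class, 20.5 ± 1.58 RPKM in KO and 19.6 ± 0.43 RPKM in WT (SD, n = 3 each). It had 53.9, 57.9 and 49.6 CPM in KO and 52.1, 50.01 and 51.8 CPM in WT, with overlapping groups (log2 fold change 0.07, SE 0.0933, adjusted p = 0.848 in edgeR). Col23a1 had 21.2, 21.8 and 20.5 CPM in KO and 19.6, 17.03 and 15.9 CPM in WT, with every KO library higher and no call (log2 fold change 0.27, SE 0.128). Col17a1, of the hemidesmosome, stayed under 2 CPM in every library, and the unclassed Col26a1 had 24.2, 23.5 and 25.7 CPM in KO and 21.1, 21.5 and 23.9 CPM in WT (log2 fold change 0.14, SE 0.117, adjusted p = 0.736 in edgeR).

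Per kilobase of the transcript with the longest coding sequence, the mean over all 6 libraries ran from 20.4 RPKM for Col4a1, 20.03 for Col25a1, 19.2 for Col6a1 and 17.3 for Col4a2 to 0.092 for Col4a4. The order differed between the groups. In KO it was Col4a1 (26.3 ± 4.85 RPKM), Col6a1 (22.4 ± 8.5), Col25a1 (20.5 ± 1.58) and Col4a2 (20.2 ± 3.097), and each differed from the next by less than the larger SD of the pair. In WT it was Col25a1 (19.6 ± 0.43 RPKM), Col6a1 (15.99 ± 2.996), Col9a3 (15.8 ± 3.23), Col4a1 (14.6 ± 0.521) and Col4a2 (14.3 ± 0.784), and Col25a1 alone stood above the next gene by more than the larger SD (SD, n = 3 each). The place of Col25a1 depended on the gene model, and per kilobase of all annotated exons it stood at 4.06 RPKM.

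The classes were also expressed as shares of the collagen counts of each library. FACIT genes held 11.8% ± 1.01 in KO and 17.6% ± 1.65 in WT of all collagen counts (SD, n = 3 each), and every KO library was below every WT library although the summed FACIT level overlapped. Multiplexins held 6.54% ± 0.799 in KO and 3.24% ± 0.547 in WT, with every KO library above. Transmembrane genes held 7.45% ± 0.6001 in KO and 9.09% ± 0.283 in WT, with every KO library below on counts and an overlap per kilobase of all annotated exons. Shares of the fibrillar class, 28.6% ± 1.09 in KO and 26.9% ± 1.18 in WT, and of the network class, 43.5% ± 1.12 in KO and 40.4% ± 2.81 in WT, overlapped on counts. Among single genes, Col3a1 supplied 7.13% ± 1.09 in KO and 2.98% ± 0.54 in WT of collagen counts and Col15a1 3.72% ± 0.321 in KO and 1.33% ± 0.121 in WT, without overlap.

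**Figure D4:**
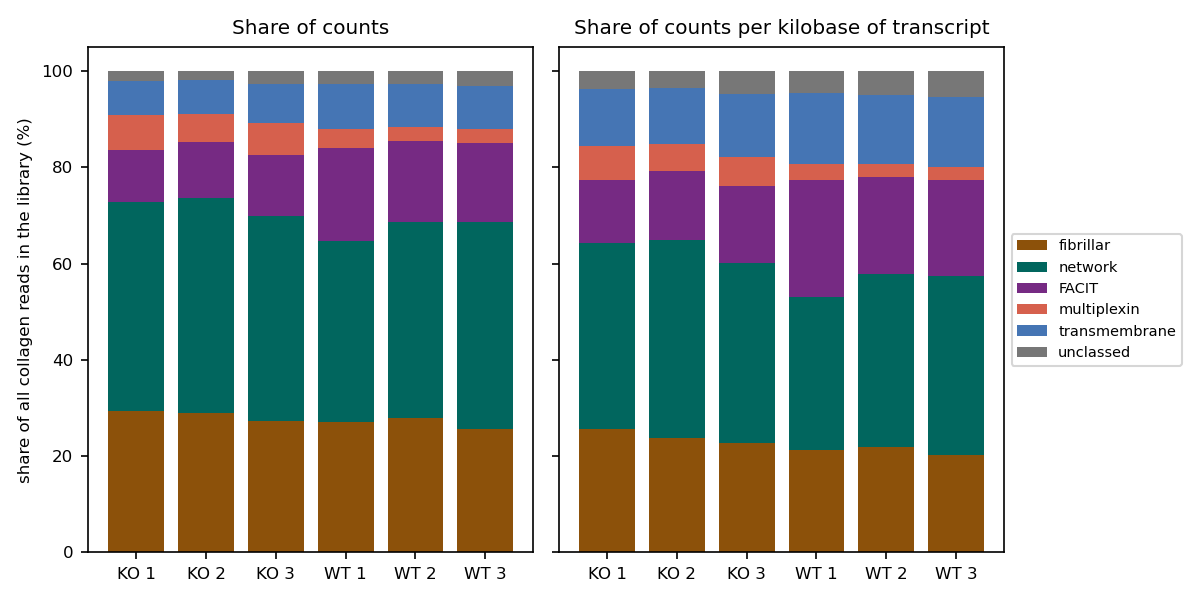
Share of all collagen counts (left, vertical axis in percent) and of counts per kilobase of transcript (right) in each of the 6 libraries, split by collagen class as coloured segments. On both scales the FACIT segment is smaller and the multiplexin segment larger in all 3 KO libraries than in any WT library.

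Ratios between related chains were compared within each library. Per kilobase of transcript, Col1a1 over Col1a2 was 0.574, 0.613 and 0.577 in KO replicates 1 to 3 and 0.454, 0.529 and 0.473 in WT replicates 1 to 3, and Col3a1 over Col1a1 was 2.14, 1.95 and 1.98 in KO and 1.38, 0.796 and 1.27 in WT. For both ratios every KO library lay above every WT library. Col3a1 over its neighbour Col5a2 was 5.13, 3.92 and 5.55 in KO and 2.27, 1.45 and 2.39 in WT, also without overlap. Col15a1 over Col18a1 was 1.21, 2.42 and 1.11 in KO and 0.506, 1.08 and 0.864 in WT, where KO replicate 3 was only just above WT replicate 2. The ratios Col6a1 over Col6a2, Col6a3 over Col6a2 and Col4a5 over Col4a6 overlapped between the groups. Together with Col4a1 over Col4a2, 8 ratios were compared. The 5 without overlap each had a two-sided exact permutation p of 0.1 (0.16 adjusted over the 8), which is the smallest that 3 libraries against 3 can give, and the other 3 had p of 0.2 to 0.5. The gene model set which chain stood higher, but not the order of the libraries. Per kilobase of all annotated exons, Col1a1 over Col1a2 was 1.21, 1.29 and 1.21 in KO and 0.954, 1.11 and 0.992 in WT. On that scale Col3a1 over Col1a1 was 1.34, 1.23 and 1.24 in KO and 0.865, 0.4996 and 0.795 in WT.

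Of 65 genes that process, degrade or bind collagen 58 were tested. Of these 2 rose and 1 fell in edgeR, where 0.241% of all genes rose and 0.958% fell, and the median of their log2 fold changes was 0.06. At an unadjusted p under 0.05 there were 12 (9.67% of all genes). With the replicate block 4 rose and 1 fell, where 1.03% of all genes rose and 2.38% fell. Of 18 genes for hydroxylation, glycosylation and folding of the chains, Serpinh1, the collagen-specific chaperone HSP47, rose. Serpinh1 had 75.95, 78.002 and 64.7 CPM in KO and 55.9, 50.6 and 47.5 CPM in WT libraries, without overlap (log2 fold change 0.51, SE 0.105, adjusted p = 0.0468 in edgeR). Fkbp10, a proline isomerase of the same compartment, had the next smallest p, at 0.53 (SE 0.142, adjusted p = 0.17). Of 12 tested genes for export and propeptide cleavage, Pcolce, which enhances removal of the C-terminal propeptide of fibrillar collagens, rose, with 10.1, 10.7 and 8.89 CPM in KO and 4.62, 5.14 and 5.54 CPM in WT (log2 fold change 0.96, SE 0.174, adjusted p = 0.0238 in edgeR). The KO and WT libraries of Pcolce were well separated. The protease gene Adamts14, the next of that list, was at 1.55 (SE 0.547, adjusted p = 0.355) from less than 1.1 CPM in every library. The calls of Serpinh1 and Pcolce were lost with a term for sex, without KO replicate 2 and without each of the WT replicates. At most 1 of these 2 calls stayed with limma-voom, with a term for cerebellar transcripts and with offsets adjusted for exonic length.

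Of 8 tested crosslinking and assembly genes edgeR called 0, with a median of 0.33. At an unadjusted p under 0.05 there were 2 (9.67% of all genes). These were Loxl2, a lysyl oxidase that crosslinks type IV collagen, at 5.23, 8.44 and 5.78 CPM in KO and 3.56, 2.7 and 3.25 CPM in WT (log2 fold change 1.03, adjusted p = 0.0976, and 0.0204 with the replicate block), and Sparc, a collagen-binding glycoprotein, at 0.31 (adjusted p = 0.505). DESeq2 called 1 of the 8 genes, higher in KO, beside 0.446% of all genes. Of 11 tested genes for degradation and its inhibitors 0 were called by edgeR or DESeq2, and 3 had an unadjusted p under 0.05 (9.67% of all genes). The smallest p were those of Mmp14, the membrane collagenase, at 0.42 (adjusted p = 0.319, and 0.0496 with the replicate block), and Mmp9, a gelatinase, at 0.92 (adjusted p = 0.328). Of 9 tested receptors, Ddr1 fell. Ddr1, a collagen receptor tyrosine kinase that oligodendrocytes also express, had 60.99, 61.1 and 56.5 CPM in KO and 102, 88.9 and 84.5 CPM in WT, with a wide gap between the groups (log2 fold change -0.62, SE 0.0968, adjusted p = 0.00891 in edgeR). Itga11, an integrin chain of fibroblasts that binds fibrillar collagen, followed at 1.26 (adjusted p = 0.248) from at most 2.68 CPM.

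The presence of cerebellar transcripts divided the libraries differently from genotype, so that KO can be set against WT within each subset. In the libraries with Gabra6 (KO replicates 1 and 3 against WT replicate 1) 7 collagen genes were called, of which 6 rose (0.116% of all genes rose) and Col20a1 fell, and in those without (KO replicate 2 against WT replicates 2 and 3) 19 rose (3.26% of all genes). In each of these fits the lone library is assumed to vary like the others. For each of the 10 genes called over the 6 libraries, every KO library lay above every WT library. Their log2 fold changes in both subsets were thus bound to be positive, and only their sizes are informative. With and without Gabra6 these were 2.03 and 2.38 for Col13a1, 1.9998 and 2.2 for Col15a1, and 1.67 and 1.8 for Col3a1. They were 1.08 and 0.87 for Col1a1, 0.74 and 0.58 for Col1a2, and 0.82 and 0.91 for Col4a1. Libraries with Gabra6 differed from those without in 121 genes (0.729% of those tested), of which Col6a1 and Col18a1 were collagens. Some fibrillar genes that did not pass the test over all libraries had values of opposite sign in the subsets. Col11a1, Col24a1 and Col27a1 had log2 fold changes of -0.16, -0.19 and -0.22 with Gabra6 and 0.64, 0.72 and 0.69 without it, and the difference was not tested.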

How the data were processed

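The authors deposited whole-number counts per gene symbol for 6 brain libraries, in a table whose name describes them as raw counts over exons of UCSC known genes. FastQC 0.11.2, Trimmomatic 0.32, STAR 2.3.0e, featureCounts 1.5.0, DESeq2 and the mm10 build are named in the submitters' processing notes. The strand setting and the treatment of reads with several alignments are not given in the sources used here, so reads of overlapping genes may be shared.

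All fits were run in R 4.3.3 on the deposited counts, filtered with filterByExpr, scaled with TMM factors and tested as KO over WT with edgeR 4.0.16 (glmQLFit and glmQLFTest, no covariate, 4 residual degrees of freedom), with Benjamini-Hochberg adjustment over 16592 genes and a threshold of 0.05. Alternatives were other scalings and filters, DESeq2 1.42.0, limma-voom (limma 3.58.1), robust spread, a replicate block, terms for cerebellar transcripts (Gabra6 above 5 CPM) and for sex (Xist above 5 CPM), library subsets, offsets adjusted for exonic length by loess (span 0.5) and leaving out each library. RPKM and shares per kilobase use GENCODE M21 lengths on mm10, in which all 44 collagen symbols were found. Promoter windows are from RefSeq. The tests were checked on simulated data.

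Same-numbered KO and WT libraries deviated together from their group means (correlations 0.351, 0.334 and 0.177), so the numbers were taken as pairs, a pairing that rests on the data alone. The chi-square per degree of freedom between libraries of a group was 6.75 to 27.41, so none was treated as a duplicate. The members, classes and gene lists were chosen with earlier results of these data known. Values were given for every called collagen gene, for the highest per length and the smallest p in each class, and for adjacent gene pairs. Of each pathway list, called genes and the 2 smallest p were named. Col18a1, Col5a1, Col11a2, Col16a1, Col23a1, Col6a4, Igf2, Ttr, Zic1, Zic2, Rgs5, Pdgfrb and Vtn were chosen after their values were seen. The same holds for Foxc1, Ogn, Slc47a1, Gpr17, Sox10 and C1ql1. So were the sum without Igf2 and the permutation tests of chain ratios.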

Additional observations from a re-analysis of the deposited data

How the results depend on the processing

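Other scalings, filters, limma-voom, a robust spread and length offsets left the counts of calls within 1.5 times those of the fit reported (199 genes, 10 collagens and 3 pathway genes). Over all genes, DESeq2 called 313, the replicate block 566, the block with length offsets 480, a term for sex 129, and the libraries without cerebellar transcripts 1254. Leaving out 1 library gave 100 to 305. Of the collagens, the block and the block with length offsets each called 16, the term for sex 6, the libraries without cerebellar transcripts 19, and leaving out 1 library gave 5 to 12. Of the pathway genes, the same settings called 5, 5, 1 and 6, the libraries with cerebellar transcripts 0, and leaving out 1 library gave 1 to 3. Where a subset left a group with 1 library, that library is assumed to vary like the others. The cause of these differences was not tested. With the block, calls were gained by Col5a2, Col4a2, Col4a5, Col6a1, Col18a1 and Col20a1, and no collagen call was lost. The KO minus WT share of collagen reads, in percentage points, was 2.97 per kilobase of transcript against 1.71 on counts for the fibrillar class, -7.90 per kilobase of all exons against -5.82 for FACIT, and -2.31 and -0.43 on these scales against -1.65 for the transmembrane class. The log2 fold change of Col25a1 was -0.015 in the libraries with cerebellar transcripts. That of Col4a3 was 0.90 in the libraries without them, 0.12 without KO replicate 3, 0.203 without WT replicate 1 and -0.73 without KO replicate 2, and that of Col4a4 was -0.027 in the libraries without them. Over all alternative fits of single genes, 450 kept direction and side of the threshold, 48 lost a call, 42 gained it and 5 changed sign. The sign changes of Col25a1, Col4a3 and Col4a4 given above are among these 5. Counts of 4 to 10 for Col10a1 and 10 to 38 for Col4a3 and Col4a4 per library limit what can be seen of these genes.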
